A study of Mus musculus with 2 samples.

Results

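Tumour monocytes defined by Ly6c2 and Vcan were examined in 2 single-cell libraries of leukocytes sorted by the surface protein CD45 from tumours of C57BL/6 mice. The mice were labelled Ythdf2 cKO, meaning that the gene Ythdf2 was knocked out conditionally, in 1 library and WT in the other; cells are called cKO-labelled and WT-labelled after them. The kind of tumour, the number and age of the animals, the promoter driving the conditional deletion and the deleted exons were not found in the sources used here. A member was a barcode with at least 200 genes and at most 10% mitochondrial UMIs (molecules counted by their unique identifier) that met limits on marker UMIs. It had at least 1 UMI of Csf1r and at least 3 of Ly6c2 plus Vcan. It had under 4 of Chil3 plus Hp, under 5 of Mmp12 plus Arg1, under 5 of Thbs1, Inhba and Ptgs2, under 3 of Ace, Treml4, Ear2 and Adgre4, at most 1 of Cd3d, Cd3e and Cd3g, and at most 1 of Cd209a. Its C1qa, C1qb and C1qc together stayed under 5 per 10000 UMIs. These limits were met by 454 of the 22044 barcodes within the quality limits, which were 214 of 9865 in the library labelled cKO and 240 of 12179 in the library labelled WT. A label had 1 library, hence no replicate, and differences below are untested descriptions of these libraries. Brackets with a range hold exact 95% intervals, which cover counting error only, unless percentiles over cells are named.

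Classical Ly6C-high monocytes leave the bone marrow through CCR2 and enter inflamed tissue and tumours, where they can mature into macrophages or take on features of antigen-presenting cells. Ly6c2 encodes a surface glycoprotein of these monocytes, and Vcan encodes the matrix proteoglycan versican, which classical monocytes transcribe. Interferon gamma from T and NK cells and type I interferons both switch on large gene programmes in them. YTHDF2 is a cytoplasmic protein that binds m6A, a methyl mark on RNA, and promotes decay of the marked transcripts. The study's title names this reader in tumour-associated macrophages and its bearing on tumour immunity and immunotherapy.

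The libraries differed in depth, which touches every count per cell. Members held a median of 11616 UMIs (10th to 90th percentile 5006.5 to 17599) in the library labelled cKO, against 7007.5 (4318 to 11395) in the library labelled WT. Their median number of genes was 3045 in cKO-labelled and 2331 in WT-labelled members, and mitochondrial UMIs made up 2.46% (cKO) and 2.49% (WT). Levels are therefore given per 1000000 of the members' summed UMIs (CPM), from 2450752 UMIs in the library labelled cKO and 1907033 in the library labelled WT. Shares of cells with a UMI of a gene are given after thinning each cell to 5347 UMIs, except where stated. Counts over all 214 cKO-labelled and 240 WT-labelled members were not thinned and are not matched for depth. They cover Ly6c2 and Vcan, Tgfbi, Ms4a4c and Fcgr1 found together, members without Lyz2, and RNA of other cell types. Also not thinned are the numbers of members that carried Klrk1, Ifitm1, Ccr9 or Gzma. Thinning used 190 cKO-labelled and 192 WT-labelled members and left out 24 (cKO) and 48 (WT) shallower ones. No barcode sequence was shared by members of both libraries, although 28 were shared among all barcodes within the quality limits.

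The gate left similar shares in both libraries when read on raw UMIs. Members made up 2.17% (1.89 to 2.48) of barcodes in the library labelled cKO and 1.97% (1.73 to 2.23) in the library labelled WT, a ratio of 1.10 (0.911 to 1.33). Per 1000 barcodes with a Csf1r UMI, they numbered 52.0 in the library labelled cKO and 44.5 in the library labelled WT. The ratio of shares moved with how depth was handled: it was 1.65 with all limits read per 10000 UMIs and 1.47 when barcodes were thinned to 3000 UMIs before gating, so the share was not comparable between libraries of unlike depth.

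Ly6c2 and Vcan, which chose the cells, were carried unequally. Both genes were found in 82 of 214 cKO-labelled members and in 135 of 240 WT-labelled members. Ly6c2 alone admitted 129 cKO-labelled and 100 WT-labelled members, and Vcan alone admitted 3 (cKO) and 5 (WT). The summed level of Ly6c2 was 1899 CPM in cKO-labelled and 1674 CPM in WT-labelled cells. The level of Vcan was 115 CPM in cKO-labelled and 339 CPM in WT-labelled cells. These levels describe the gate and are not a result. At its lower edge, the 14 cKO-labelled and 19 WT-labelled members with exactly 3 UMIs of the pair had 1374 CPM (cKO) and 872 CPM (WT) of Tgfbi. Just outside, at 2 UMIs, 16 cKO-labelled and 16 WT-labelled barcodes had 1920 CPM (cKO) and 682 CPM (WT) of Tgfbi.

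Several limits set the members apart from neighbouring monocytes and macrophages. Failing on Chil3 plus Hp alone, markers of monocytes fresh from marrow, were 402 barcodes in the library labelled cKO and 282 in the library labelled WT; they are called early monocytes here. Failing on Thbs1, Inhba and Ptgs2 alone were 152 (cKO) and 192 (WT) barcodes, called stressed monocytes. Failing on complement C1q alone were 90 (cKO) and 154 (WT). All C1q-high macrophages, gated separately on Csf1r and C1q, numbered 566 (cKO) and 1615 (WT).

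Markers outside the gate were more abundant in the members than in T cells. Tgfbi, a secreted matrix protein made by monocytes, stood at 1740 CPM in cKO-labelled and 1549 CPM in WT-labelled cells. Ms4a4c, a membrane protein of the tetraspan Ms4a family, was at 1050 CPM in cKO-labelled and 813 CPM in WT-labelled cells. Fcgr1, the high-affinity IgG receptor, was at 667 CPM in cKO-labelled and 427 CPM in WT-labelled cells. Ccr2, the chemokine receptor of classical monocytes, was at 1205 CPM (cKO) and 1107 CPM (WT). In gated T cells Tgfbi was at 36.6 CPM in the library labelled cKO and 40.02 CPM in the library labelled WT, Fcgr1 at 16.9 CPM (cKO) and 17.0 CPM (WT), Ms4a4c at 80.3 CPM (cKO) and 62.0 CPM (WT), and Ccr2, which T cells also transcribe, at 407 CPM (cKO) and 361 CPM (WT). All 3 of Tgfbi, Ms4a4c and Fcgr1 were found in 178 cKO-labelled members (83.2%) and 176 WT-labelled members (73.3%), and none of them in 7 (cKO) and 13 (WT) members. Fcgr1 alone of these 4 genes passed 1.5-fold, at a ratio of 1.56.

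**Figure D1:**
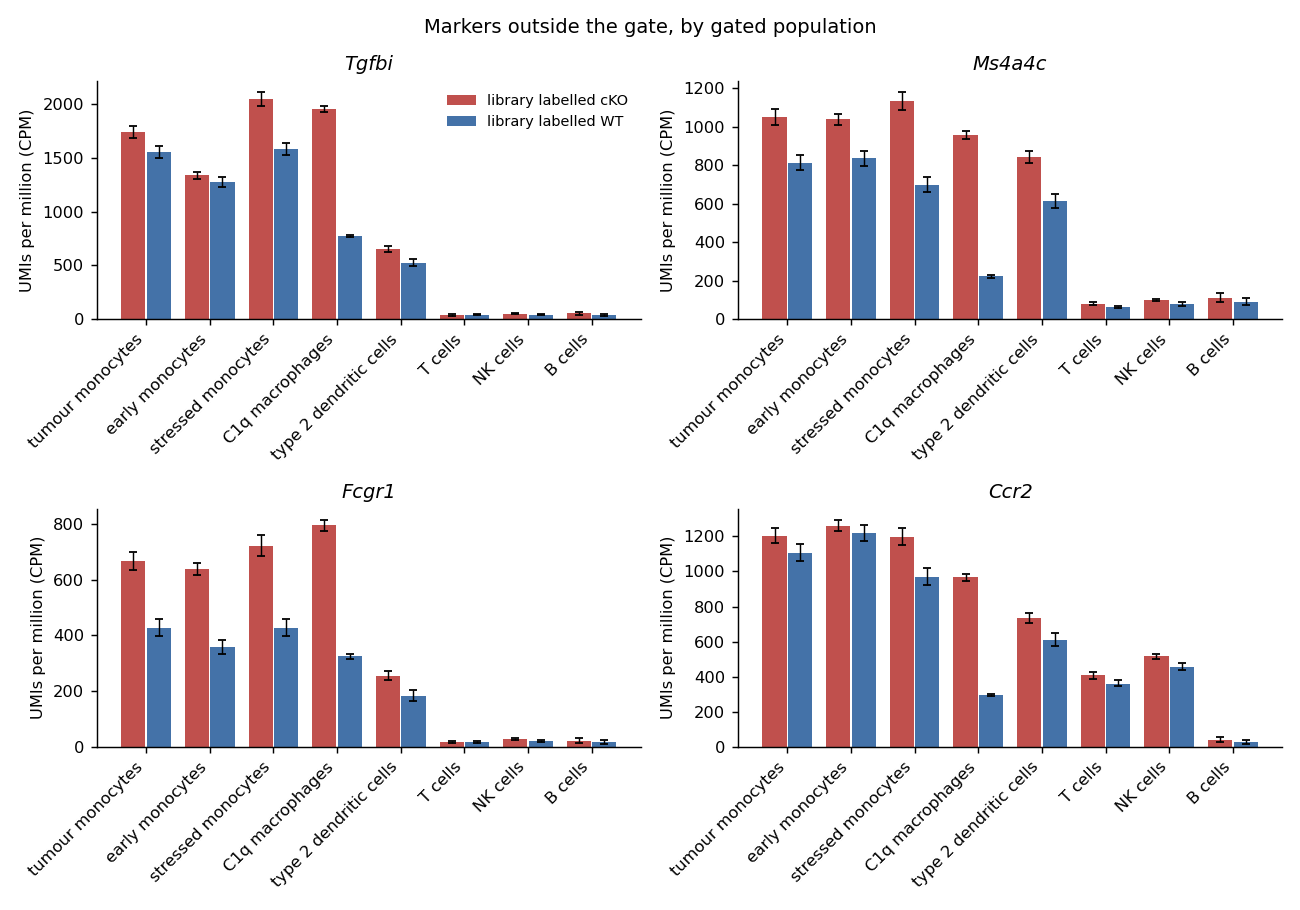
Level of 4 monocyte genes that the gate does not use, in CPM, in 8 gated populations, with the library labelled cKO left of the library labelled WT and bars for 95% counting intervals. All 4 are high in the members and in early and stressed monocytes; Tgfbi in T cells is 36.6 CPM (cKO) and 40.02 CPM (WT), and in the members 1740 CPM (cKO) and 1549 CPM (WT).

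Neighbouring populations shared these markers. Early monocytes had 1336 CPM of Tgfbi in the library labelled cKO and 1272 CPM in the library labelled WT. Stressed monocytes had 2045 CPM (cKO) and 1581 CPM (WT) of Tgfbi. The macrophages gated on C1q differed more between libraries, with 1955 CPM of Tgfbi in the library labelled cKO and 773 CPM in the library labelled WT, and with 957 CPM (cKO) and 222 CPM (WT) of Ms4a4c.

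RNA of other cell types was present in both sets of members and was measured before any comparison. At least 3 UMIs of NK genes were found in 25 of 214 cKO-labelled and 15 of 240 WT-labelled members. Plasmacytoid dendritic cell genes reached 3 UMIs in 7 (cKO) and 9 (WT) members, and melanocytic genes in 0 (cKO) and 8 (WT). The WT-labelled member with the most UMIs (75606) held 458 UMIs of Pmel and 322 of Dct, both pigment cell genes, beside 8 of Ly6c2. The next (32541 UMIs) held 315 UMIs of Mgp, 209 of Sparc and 198 of Acta2, genes of vessel wall and connective tissue, with 14 UMIs of Vcan, and it had no UMI of Ptprc, Ly6c2, Tgfbi or Lyz2. They held 3.97% and 1.71% of the WT-labelled members' UMIs, so named genes and lists that move with them are given with and without both.

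Ythdf2, the targeted gene, went against the label. Its RNA (ENSMUSG00000040025, GRCm38 chr4:132184912-132212303, minus strand) stood at 344 CPM (322 to 368) in cKO-labelled and 51.4 CPM (41.7 to 62.6) in WT-labelled cells. This was a 6.70-fold higher level (5.43 to 8.35). At matched depth 71.1% (64.1 to 77.4) of cKO-labelled members had a UMI, against 22.9% (17.2 to 29.5) of WT-labelled members. In B cells thinned to 1951 UMIs the shares were 11.4% (cKO) and 9.89% (WT), and in members thinned to that depth they were 43.3% (cKO) and 10.0% (WT). Early monocytes showed 402 CPM (cKO) and 47.1 CPM (WT) and C1q macrophages 435 CPM (cKO) and 76.4 CPM (WT), whereas T cells were at 67.3 CPM (cKO) and 54.3 CPM (WT). Reads of this chemistry start at the 5′ end of transcripts, so they may lie outside the deleted part and do not check the deletion. An exchange of the 2 labels would turn every direction, and it cannot be told apart from reads outside the deletion. Hence the libraries are named by their labels only, and every direction below is that of the label.

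Of 7652 genes with at least 10 CPM in a library, 468 (6.12%) were at least 1.5-fold higher and 800 (10.5%) at least 1.5-fold lower in the library labelled cKO. The median log2 ratio over all of them was −0.07. The 12 genes with the largest ratio on each side, by a rule on level, are given next. The rule also left out genes under 0.2 of their level in another gated population. This limit was read in the library where the gene was higher, so it follows the difference. Ifitm1, Klrb1b, Klrk1 and Cd72 met it only in the library labelled cKO. Eps8, Ccl6, Sparc, Rgs5, Col1a1, Acta2 and Cald1 met it only in the library labelled WT. Of the 12 higher genes, which include Ythdf2, Isg15, Ifit3, Isg20, Iigp1, Phf11a and Ifitm1 are known as interferon-induced genes. Of the 12 lower genes, 7 had between 83.6% and 99.4% of their WT UMIs in 1 barcode.

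AA467197 (also called Nmes1 in mouse, a small mitochondrial protein induced in activated myeloid cells) was at 461 CPM (435 to 489) in cKO-labelled and 89.7 CPM (76.7 to 104) in WT-labelled cells, a ratio of 5.15 (4.38 to 6.08). It was found in 43.7% (36.5 to 51.1) of cKO-labelled members at matched depth, against 14.6% (9.91 to 20.4) of WT-labelled members. Klrk1, which encodes the activating receptor NKG2D, was at 179 CPM in cKO-labelled and 62.4 CPM in WT-labelled cells, a ratio of 2.86 (2.33 to 3.54). Its RNA was spread over 150 of 214 cKO-labelled members and 60 of 240 WT-labelled members, with at most 16 UMIs in a member. NK cells, its main source in these libraries, had 607 CPM in the library labelled cKO and 538 CPM in the library labelled WT, and B cells had 28.9 CPM (cKO) and 20.1 CPM (WT). Cd72, an inhibitory lectin-like receptor, was at 95.1 CPM in cKO-labelled and 27.3 CPM in WT-labelled cells. B cells held more of it, 197 CPM (cKO) and 144 CPM (WT), as did C1q macrophages, 193 CPM (cKO) and 228 CPM (WT). Its log2 ratio of 1.76 was 0.63 with limits per 10000 UMIs and 0.47, under 1.5-fold, with barcodes thinned to 3000 UMIs before gating.

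Klrb1b (an NKR-P1 receptor of NK and some myeloid cells) had 59.6 CPM in cKO-labelled and 18.9 CPM in WT-labelled cells. NK cells had 285 CPM (cKO) and 261 CPM (WT) of Klrb1b. Its log2 ratio of 1.61 was 0.92 without members that had any T, NK, B or melanocytic UMI, and 0.70 with limits per 10000 UMIs. Mthfs, a folate enzyme, had 52.6 CPM in cKO-labelled and 17.8 CPM in WT-labelled cells. Ifitm1, an interferon-induced membrane protein, had 431 CPM in cKO-labelled and 102 CPM in WT-labelled cells, but in few cells: 60 of 214 cKO-labelled and 33 of 240 WT-labelled members carried it, and 1 cKO-labelled member held 209 of the 1057 UMIs. Neutrophils had 1390 CPM (cKO) and 1401 CPM (WT) of Ifitm1, type 2 dendritic cells 975 CPM (cKO) and 1098 CPM (WT), and early monocytes 48.5 CPM (cKO) and 54.7 CPM (WT). Its log2 ratio of 2.07 was 0.25 when barcodes were thinned to 3000 UMIs before gating.

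On the lower side, Lyz2, the lysozyme of monocytes and macrophages, had the largest difference in CPM of the 12. It stood at 2504 CPM (2441 to 2567) in cKO-labelled and 8071 CPM (7944 to 8199) in WT-labelled cells, 3.22 times as high in WT (3.13 to 3.32). No Lyz2 UMI was found in 25 cKO-labelled members (11.7%), against 7 WT-labelled members (2.92%). Early monocytes had 6135 CPM in cKO-labelled and 11974 CPM in WT-labelled cells, and C1q macrophages 2705 CPM (cKO) and 4862 CPM (WT). In B cells, which should lack it, Lyz2 was at 77.5 CPM (cKO) and 234 CPM (WT). A UMI was found in 13.99% (cKO) and 35.4% (WT) of B cells at 1951 UMIs, beside 73.3% of cKO-labelled members and 228 of 240 WT-labelled members at that depth. Lyz2 RNA in B cells was thus also lower under the label cKO, and its part in the members' difference was not tested.

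Eps8, an actin-capping protein, was at 58.3 CPM in cKO-labelled and 223 CPM in WT-labelled cells, or 205 CPM there without the 2 deepest WT-labelled members. A UMI was found in 23.2% (17.4 to 29.8) of cKO-labelled members and 59.4% (52.1 to 66.4) of WT-labelled members at matched depth. Eps8 was highest in melanocytic cells, at 340 CPM (cKO) and 529 CPM (WT), and was also lower in the library labelled cKO in early monocytes, at 40.3 CPM (cKO) and 173 CPM (WT). Ccl6, a chemokine made by myeloid cells, was at 239 CPM in cKO-labelled and 605 CPM in WT-labelled cells; its log2 ratio of −1.34 was −0.47 when barcodes were thinned before gating. Ccr9, a chemokine receptor of plasmacytoid dendritic cells, was at 31.0 CPM in cKO-labelled and 91.8 CPM in WT-labelled cells but came from 14 cKO-labelled and 8 WT-labelled members, and its log2 ratio was −1.53 over all members and 2.02 without members that had 3 or more UMIs of other cell types. Itga1, the integrin alpha 1 chain, was at 18.8 CPM in cKO-labelled and 56.1 CPM in WT-labelled cells, with 39 of its 107 WT UMIs in 1 barcode; its log2 ratio of −1.53 was −0.95 without the 2 deepest members and −0.20 with barcodes thinned before gating.

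Sparc, Mgp, Rgs5, Col1a1, Acta2, Cald1 and Col4a1 made up the rest of the lower genes. Of 317 Mgp UMIs in the library labelled WT, 315 lay in the second deepest member, which also held 162 of the 164 Rgs5 UMIs, 198 of the 202 of Acta2 and 111 of the 116 of Col1a1. The library labelled cKO had 2 UMIs of Mgp, 4 of Acta2, and none of Rgs5 or Col1a1. The second deepest member also held 209 of the 250 Sparc UMIs, 89 of the 101 of Cald1 and 98 of the 104 of Col4a1. The plot of log2 ratios therefore shows these genes with and without both deep WT-labelled members. Without both, the log2 ratios of Sparc, Col1a1 and Rgs5 were −1.95, −1.92 and −1.08, on the few UMIs left. Those of Mgp, Acta2, Cald1 and Col4a1 were within 1.5-fold. Once both deep WT-labelled members were left out, the same rule named Timp1 among the higher genes, at 62.8 CPM in the library labelled cKO and 17.2 CPM in the library labelled WT. It then also named F13a1, Fn1, Pilra, Mgst1, Selenop, Plod3, Fabp5 and Cd302 among the lower ones, a choice made after values were seen.

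**Figure D2:**
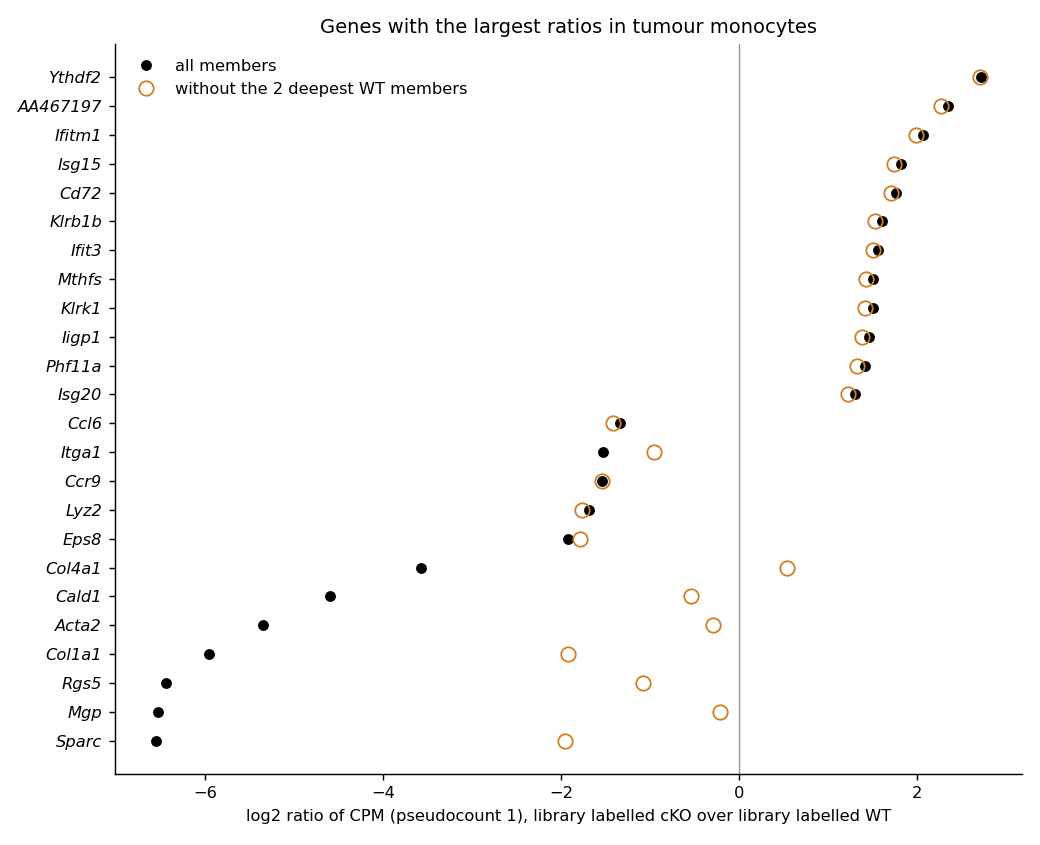
Log2 ratio of CPM, library labelled cKO over library labelled WT, for the 12 genes with the largest ratio on each side; black points use all members and open circles leave out the 2 WT-labelled members with the most UMIs. The higher genes barely move, whereas Sparc, Mgp, Rgs5, Col1a1, Acta2, Cald1 and Col4a1 shift towards 0 and Col4a1 changes sign, to 0.54. With no UMI in the library labelled cKO, the place of Rgs5 and Col1a1 depends on the pseudocount.

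Interferon-induced genes lay on the higher side in the library labelled cKO. Of 22 measured genes of the interferon gamma response, 14 (63.6%) passed 1.5-fold upwards and 0 downwards, beside 6.12% and 10.5% of all genes. Their median log2 ratio was 0.63, and that of all genes −0.07. Of 33 measured genes of the type I interferon response, 21 (63.6%) were higher and 0 lower, and their median was 0.64. The lists share a trigger pathway and were drawn up with results of these data known, so the counts describe and do not test. Without the 2 deepest WT-labelled members, 11 interferon gamma and 16 type I genes were higher and 0 lower. Across 16 alternative settings the medians ranged between 0.39 and 0.90 for interferon gamma and between 0.56 and 0.76 for type I interferon.

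Within the type I list, Isg15, a ubiquitin-like modifier, was at 349 CPM (326 to 373) in cKO-labelled and 98.1 CPM (84.5 to 113) in WT-labelled cells, a ratio of 3.56 (3.04 to 4.20). Ifit3, a member of the IFIT family that restrains viral RNA, was at 236 CPM in cKO-labelled and 79.2 CPM in WT-labelled cells, and its neighbour in function Ifit1 at 252 CPM in cKO-labelled and 106 CPM in WT-labelled cells. Isg20, an exonuclease that degrades RNA, was at 211 CPM in cKO-labelled and 84.9 CPM in WT-labelled cells. Irf7, the factor that amplifies type I interferon output, was at 617 CPM in cKO-labelled and 366 CPM in WT-labelled cells, and Usp18, the brake on the type I receptor, at 118 CPM in cKO-labelled and 66.1 CPM in WT-labelled cells. Some members hardly differed: Rsad2 (viperin) was at 378 CPM in cKO-labelled and 319 CPM in WT-labelled cells, and Slfn1 at 263 CPM (cKO) and 272 CPM (WT). Ifit3 and Ifit3b, and the Phf11 and Oas1 genes, have near-identical copies among which reads may have been divided.

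Within the interferon gamma list, Iigp1, an immunity-related GTPase, was at 115 CPM in the library labelled cKO and 40.9 CPM in the library labelled WT. Gbp2, a guanylate-binding protein of cell-autonomous defence, was at 790 CPM in cKO-labelled and 365 CPM in WT-labelled cells. Cxcl9, the chemokine that draws CXCR3-bearing T cells, was at 1033 CPM (993 to 1074) in cKO-labelled and 515 CPM (484 to 549) in WT-labelled cells. Serpina3g was at 182 CPM in cKO-labelled and 86.5 CPM in WT-labelled cells. Of the pathway's own regulators, Irf1 was at 205 CPM (cKO) and 192 CPM (WT) and the receptor chain Ifngr1 at 144 CPM (cKO) and 132 CPM (WT).

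Promoters of 3 of these genes, from RefSeq on GRCm38.p6, show the letters through which interferon factors are known to act. Each window runs from 250 bases before to 50 bases after the start of transcription, on the gene's own strand, and capitals mark the interferon-stimulated response element on either strand, searched as GAAA, any 2 bases, GAAA. Isg15 (chr4:156200769-156201068, minus strand) holds 3 overlapping matches, Ifit3 (chr19:34583279-34583578, plus strand) holds 2, and Gbp2 (chr3:142620413-142620712, plus strand) holds 1.
Isg15: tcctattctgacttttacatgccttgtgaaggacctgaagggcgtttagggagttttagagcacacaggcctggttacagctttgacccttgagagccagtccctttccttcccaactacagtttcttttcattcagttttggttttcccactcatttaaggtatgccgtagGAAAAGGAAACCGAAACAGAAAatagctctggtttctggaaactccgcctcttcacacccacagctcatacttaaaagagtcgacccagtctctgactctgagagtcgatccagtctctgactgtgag
Ifit3: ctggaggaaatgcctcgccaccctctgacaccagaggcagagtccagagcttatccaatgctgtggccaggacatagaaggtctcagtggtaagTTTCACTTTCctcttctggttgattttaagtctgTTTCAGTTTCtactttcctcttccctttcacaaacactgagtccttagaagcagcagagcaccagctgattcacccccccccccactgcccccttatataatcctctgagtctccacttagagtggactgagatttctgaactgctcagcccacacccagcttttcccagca
Gbp2: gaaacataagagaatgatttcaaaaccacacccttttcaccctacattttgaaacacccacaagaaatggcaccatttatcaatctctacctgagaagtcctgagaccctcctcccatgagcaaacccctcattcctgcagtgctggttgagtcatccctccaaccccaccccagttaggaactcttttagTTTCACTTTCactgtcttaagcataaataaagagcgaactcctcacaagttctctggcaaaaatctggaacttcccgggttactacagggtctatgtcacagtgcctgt
The same letters occur in 3.44% of all 32851 windows, and in 3.99% of all genes when any window of a gene counts. Of the 28 type I list genes with a window, of 34 listed, 16 (57.1%) have a match, as do 11 (68.8%) of the 16 with a window among 26 interferon gamma genes. The gamma-activated sequence, searched as TTC, any 3 bases, GAA, reads the same on both strands. It is in 8.30% of windows and, counted per gene, in 9.55% of all genes. Of those 16 interferon gamma genes 9 (56.3%) hold it, as do 4 (14.3%) of the 28 type I genes. None of the printed windows holds it. Of 12 genes with a window in the list of chemokines that attract monocytes and neutrophils, 1 has each motif.

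**Figure D3:**
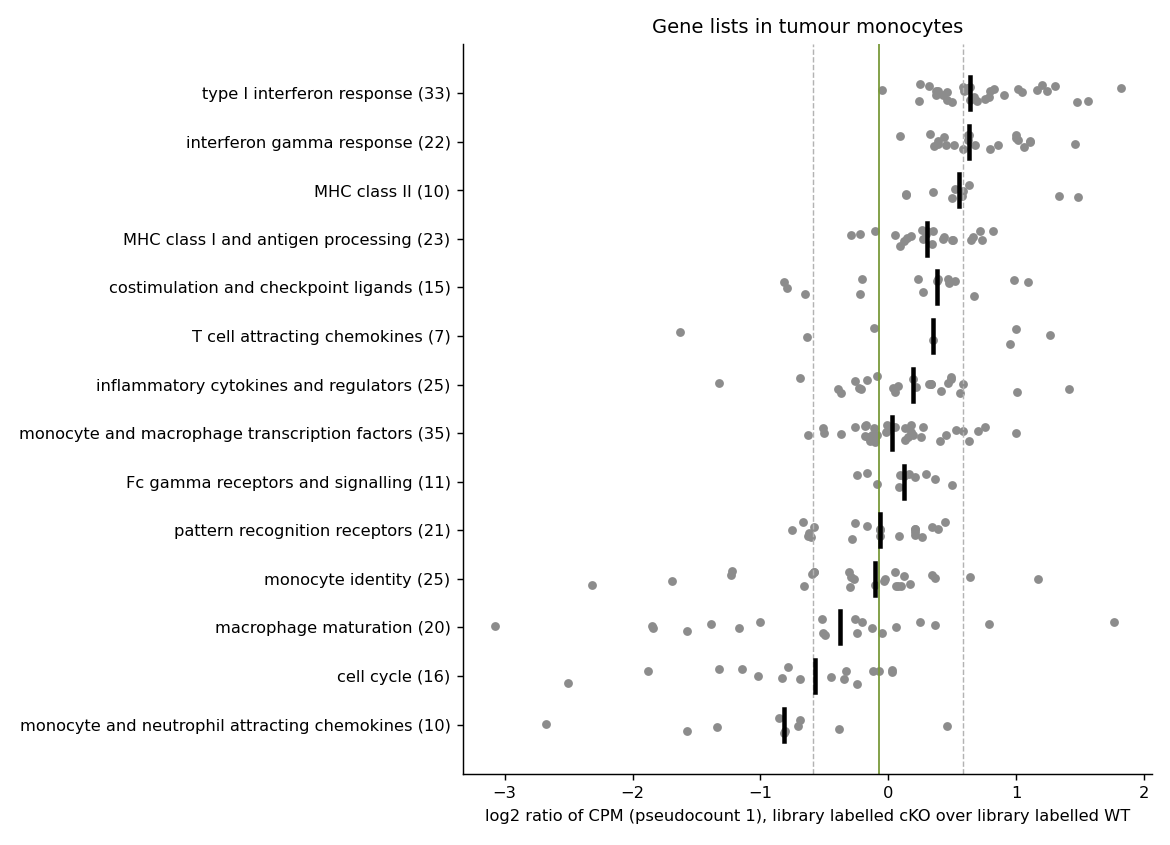
Log2 ratio of CPM, library labelled cKO over library labelled WT, for the measured genes of 14 lists in the members; each grey point is a gene, each black bar a list median, the dashed lines mark 1.5-fold and the green line the median of all genes. Both interferon lists lie right of the green line, with medians of 0.64 and 0.63, and the chemokines that attract monocytes and neutrophils lie furthest left, at −0.81.

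At one depth, a UMI of interferon-induced genes was found in more of the cKO-labelled members. Isg15 was found in 63.2% (55.9 to 70.0) of cKO-labelled members and 35.4% (28.7 to 42.6) of WT-labelled members. Gbp2 was found in 62.6% (55.3 to 69.5) of cKO-labelled members and 42.7% (35.6 to 50.03) of WT-labelled members, and Cxcl9 in 38.4% (31.5 to 45.7) of cKO-labelled and 22.4% (16.7 to 29.0) of WT-labelled members. Without thinning, the Cxcl9 shares were 44.9% (cKO) and 26.3% (WT). In B cells at 1951 UMIs they were 3.11% (cKO) and 3.04% (WT), and in members at that depth 35.2% (cKO) and 15.8% (WT). Some other interferon-induced genes were also higher under the label cKO in lymphocytes. Isg15 was at 133 CPM (cKO) and 19.3 CPM (WT) in B cells, and 48.1 CPM (cKO) and 19.1 CPM (WT) in T cells. Ifit3 in B cells was at 89.1 CPM (cKO) and 14.5 CPM (WT). Ifitm1 and Phf11a went the other way in B cells, at 6.94 CPM (cKO) and 44.3 CPM (WT), and 2.31 CPM (cKO) and 3.22 CPM (WT). Free RNA was not measured directly, and its part in the members' shares was not tested. Cxcl10, a further CXCR3 ligand, was found in 59.5% (52.1 to 66.5) of cKO-labelled and 52.6% (45.3 to 59.8) of WT-labelled members, with intervals that overlap.

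**Figure D4:**
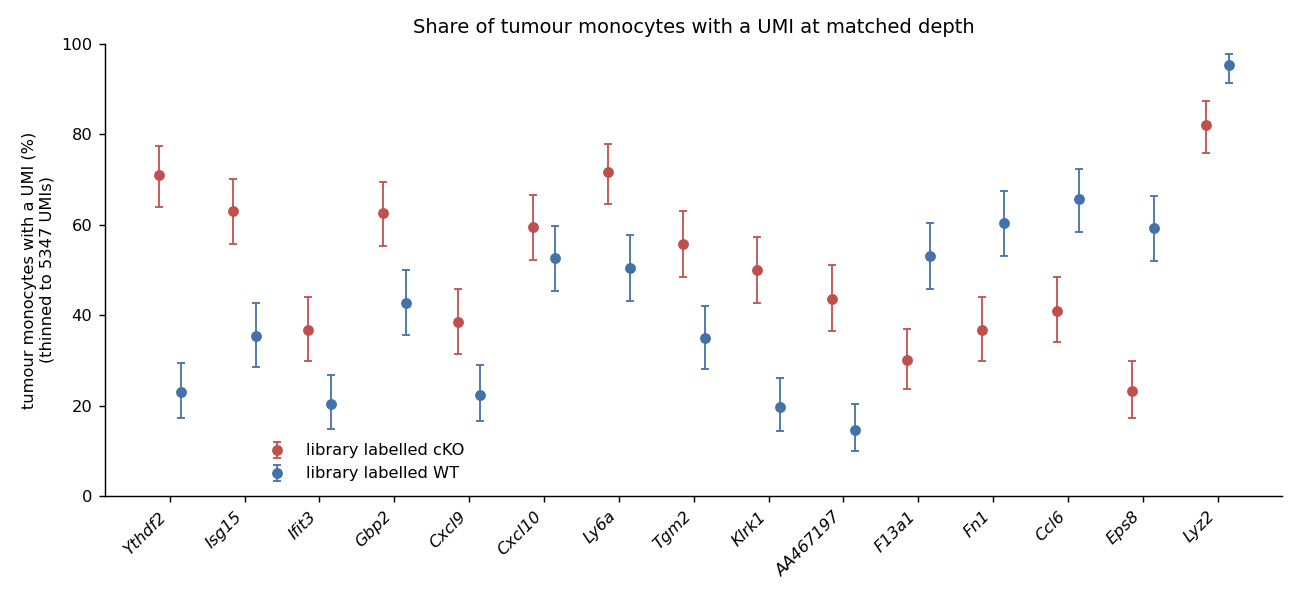
Percentage of members with a UMI of 15 genes after thinning to 5347 UMIs, with exact 95% binomial intervals, library labelled cKO left of library labelled WT. Ythdf2 (71.1% cKO, 22.9% WT) and Isg15 (63.2% cKO, 35.4% WT) are more often found in the library labelled cKO, Eps8 (23.2% cKO, 59.4% WT) and F13a1 (30.0% cKO, 53.1% WT) less often, and the intervals of Cxcl10 overlap.

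The spread over single members was wide in both libraries. Thinned members held a median of 14 UMIs of the interferon gamma list (10th to 90th percentile 3.9 to 51.2) in the library labelled cKO and 7 UMIs (2 to 27.9) in the library labelled WT. For the type I list the values were 27.5 UMIs (8 to 87.8) in the library labelled cKO and 20.5 UMIs (6 to 54.9) in the library labelled WT. The libraries overlapped for both lists. The 10th, 50th and 90th percentiles were higher under the label cKO, whereas the single highest member was WT-labelled, at 197 (cKO) and 228 (WT) UMIs for interferon gamma and 170 (cKO) and 215 (WT) UMIs for type I. Gbp2 was found in 66 of 73 cKO-labelled members with Cxcl9 (90.4%) and 53 of 117 without (45.3%), and in 30 of 43 WT-labelled members with Cxcl9 (69.8%) and 52 of 149 without (34.9%). Cxcl9 was found in 39.7% of cKO-labelled members with Vcan and 37.9% of those without, and in 21.8% of WT-labelled members with Vcan and 23.1% of those without.

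**Figure D5:**
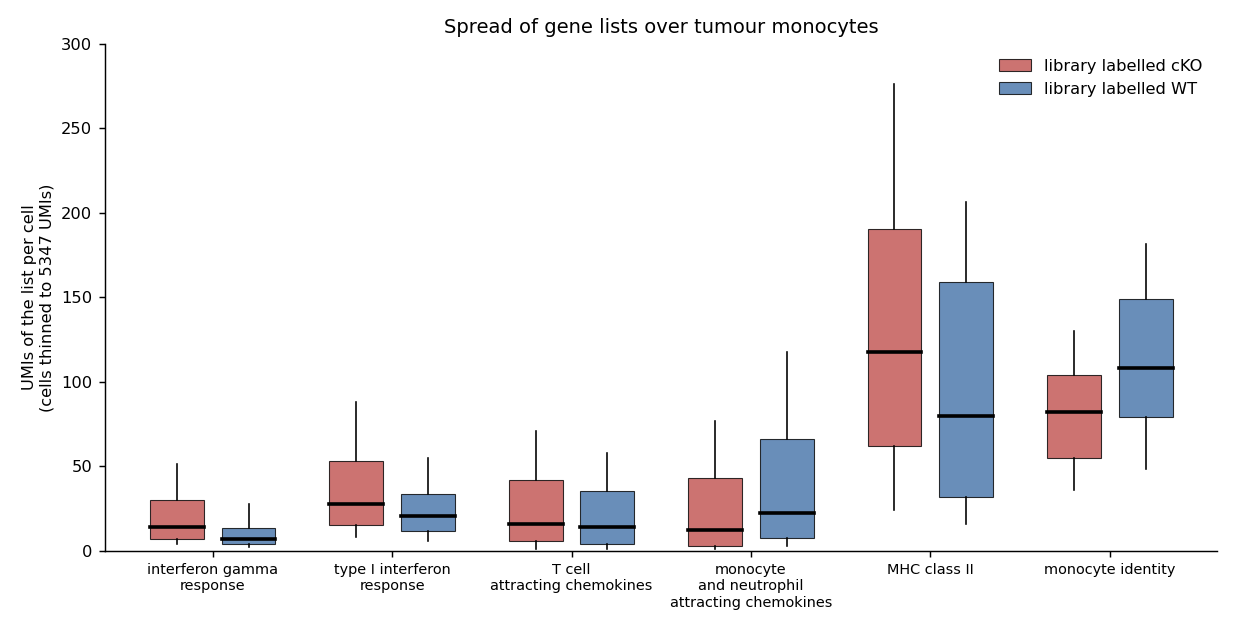
UMIs of 6 gene lists per member after thinning to 5347 UMIs, with the library labelled cKO left of the library labelled WT; boxes span the 25th to 75th percentile, thick lines are medians and thin lines reach the 10th and 90th percentile. Boxes overlap for every list; medians of the interferon gamma list are 14 (cKO) and 7 (WT) UMIs and those of the chemokines that attract monocytes and neutrophils 12 (cKO) and 22 (WT).

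Chemokine genes differed in both directions. Of 10 measured chemokines that attract monocytes and neutrophils, 8 were at least 1.5-fold lower in the library labelled cKO and 0 higher. Among all genes 10.5% were lower and 6.12% higher. The median log2 ratio of the list was −0.81. Cxcl2, a ligand of the neutrophil receptor CXCR2, was at 2175 CPM in cKO-labelled and 3933 CPM in WT-labelled cells. Ccl7, a ligand of CCR2, was at 400 CPM in cKO-labelled and 652 CPM in WT-labelled cells. Ccl9 was at 259 CPM in cKO-labelled and 453 CPM in WT-labelled cells and Pf4, a platelet and macrophage chemokine, at 22.4 CPM in cKO-labelled and 68.7 CPM in WT-labelled cells.

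Ccl2, the main CCR2 ligand, was at 1562 CPM in the library labelled cKO and 2036 CPM in the library labelled WT, within 1.5-fold, and Ccl12 was the one member on the higher side, at 382 CPM in cKO-labelled and 277 CPM in WT-labelled cells. Ccl8 was at 9.385 CPM in cKO-labelled and 65.5 CPM in WT-labelled cells, with 64 of 125 WT UMIs in a single member. Thinned members held a median of 12 UMIs of this list (10th to 90th percentile 1 to 77) in the library labelled cKO. In the library labelled WT the median was 22 UMIs (10th to 90th percentile 3 to 117.9). None was found in 18 (cKO) and 4 (WT) members. The list median depended on the gate: it was −0.59 with limits per 10000 UMIs and −0.18 with barcodes thinned before gating, where the log2 ratio of Ccl2 was 0.03 and that of Ccl7 0.39. With barcodes thinned before gating, 3 of 11 measured genes of the list were higher and 2 lower.

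The median log2 ratio of 7 measured chemokines that attract T cells was 0.35. In the library labelled cKO, 3 were higher and 2 lower, beside 6.12% and 10.5% of all genes. Beside Cxcl9, the higher ones were Cxcl16, the CXCR6 ligand, and Ccl5, a chemokine of T and NK cells and macrophages. Cxcl16 was at 283 CPM in cKO-labelled and 117 CPM in WT-labelled cells. Ccl5 was at 373 CPM in cKO-labelled and 192 CPM in WT-labelled cells. Ccl5 is also abundant in NK and T cells, whose RNA was present in members. The lower ones were Ccl3, at 418 CPM in cKO-labelled and 652 CPM in WT-labelled cells, and Ccl22, at 6.94 CPM in cKO-labelled and 23.6 CPM in WT-labelled cells, where 43 of 45 UMIs lay in 1 member. With limits per 10000 UMIs, 4 of 6 measured genes were higher and 0 lower, and the log2 ratio of Ccl22 was 1.55; that of Ccl3 was 0.05 with barcodes thinned before gating. Cxcl10 was at 1267 CPM in cKO-labelled and 996 CPM in WT-labelled cells.

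Genes of antigen presentation lay on the higher side by smaller steps. All 5 MHC class I pathway genes past 1.5-fold were higher: H2-T23, Nlrc5 (the transactivator of class I genes), H2-Q4, H2-T22 and Psmb9, a subunit of the immunoproteasome, out of 23 measured. They made up 21.7% of the list, beside 6.12% higher and 10.5% lower among all genes. The count of 5 fell to 2 with limits per 10000 UMIs and to 1 with barcodes thinned before gating. Psmb9 was at 424 CPM in the library labelled cKO and 270 CPM in the library labelled WT, and B2m at 3861 CPM (cKO) and 3124 CPM (WT). Class I genes of the Q and T regions are near-identical, so reads may have been divided among them. Of 10 MHC class II genes, 3 (30%) were higher and 0 lower, beside the same 6.12% and 10.5% of all genes. The higher ones were H2-Eb1, at 3183 CPM (cKO) and 2054 CPM (WT), and the low H2-Oa and H2-Ob. H2-Oa had 46 (cKO) and 13 (WT) UMIs, and H2-Ob 44 (cKO) and 11 (WT) UMIs. Just short of 1.5-fold, H2-Ab1 was at 4723 CPM in cKO-labelled and 3152 CPM in WT-labelled cells, and Cd74, the invariant chain, at 9740 CPM in cKO-labelled and 6767 CPM in WT-labelled cells.

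The class II difference was bound to the gate. The list median was 0.55 with the rule as given, 0.17 with limits per 10000 UMIs and 0.000254 with barcodes thinned before gating. At 5347 UMIs per cell, members held a median of 117.5 class II UMIs (10th to 90th percentile 24 to 276.3) in the library labelled cKO. In the library labelled WT the median was 80 (10th to 90th percentile 16 to 206.6). Among surface molecules that engage T cells, Cd40 was at 123 CPM in cKO-labelled and 61.9 CPM in WT-labelled cells, and Slamf7 at 140 CPM in cKO-labelled and 65.0 CPM in WT-labelled cells. Cd274, which encodes PD-L1, was at 158 CPM (cKO) and 121 CPM (WT), within 1.5-fold. In that list of 15 measured genes, 3 were higher and 3 lower, beside 6.12% and 10.5% of all genes.

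Genes of monocyte identity were divided. Of 25 measured genes, 2 (8%) were higher, 7 (28%) lower and 16 within 1.5-fold in the library labelled cKO. Among all genes 6.12% were higher and 10.5% lower. The median log2 ratio of the list was −0.11. Ly6a, the interferon-induced Sca-1 antigen, was at 1069 CPM in cKO-labelled and 475 CPM in WT-labelled cells; its log2 ratio of 1.17 was 0.39 with limits per 10000 UMIs and 0.40 with barcodes thinned before gating, both under 1.5-fold. Plac8 was at 3684 CPM (cKO) and 3494 CPM (WT). The lower ones held Lyz2, Lyz1 and 2 genes of secreted matrix and clotting proteins. F13a1, the coagulation factor XIII A chain, was at 124 CPM in the library labelled cKO and 291 CPM in the library labelled WT, and Fn1, fibronectin, at 197 CPM in cKO-labelled and 461 CPM in WT-labelled cells. The log2 ratio of F13a1 was −1.23 as gated, −0.46 with limits per 10000 UMIs and −0.24 with barcodes thinned before gating, and that of Fn1 was −1.23, −0.71 and −0.21 under the same gates. Lyz1, at 14.2 CPM in WT-labelled cells, had 2.14 with limits per 10000 UMIs against −2.32 as gated. The count of lower genes was 3 with limits per 10000 UMIs and 2 with thinning before gating. F13a1 was found in 30.0% (23.6 to 37.1) of cKO-labelled and 53.1% (45.8 to 60.4) of WT-labelled members at matched depth. In the library labelled cKO it was found in 44.8% of members with Vcan and 23.5% of those without, and in the library labelled WT in 60.4% with and 45.1% without. Vcan was part of the gate and was carried by fewer cKO-labelled members, and its part in the F13a1 difference was not tested.

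Of 20 measured macrophage maturation genes, 2 were higher and 7 (35.0%) lower, beside 10.5% lower among all genes. Cd72 and Axl, a receptor tyrosine kinase for dying cells, were higher, Axl at 117 CPM in cKO-labelled and 67.1 CPM in WT-labelled cells. Mrc1, the mannose receptor, was at 34.3 CPM in cKO-labelled and 91.2 CPM in WT-labelled cells. Fabp5, a fatty acid binding protein, was at 319 CPM in cKO-labelled and 718 CPM in WT-labelled cells, or 650 CPM there without the 2 deepest members. Cd63 and Gpnmb, which pigment cells share, were also lower: Cd63 had 46.1 CPM (cKO) and 167 CPM (WT), and Gpnmb 22.9 CPM (cKO) and 84.9 CPM (WT). In 1 WT-labelled member lay 139 of 319 Cd63 UMIs and 87 of 162 Gpnmb UMIs, and without the 2 deepest members the WT levels were 72.8 CPM of Cd63 and 41.7 CPM of Gpnmb. Complement C1qa, limited by the gate, was at 14.7 CPM in cKO-labelled and 45.1 CPM in WT-labelled cells.

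Of 35 measured transcription factors of the lineage, 6 (17.1%) were at least 1.5-fold higher and 1 (2.86%) lower, beside 6.12% and 10.5% of all genes. Without the 2 deepest WT-labelled members 5 were higher and 3 lower. Spi1, the PU.1 master factor of myeloid cells, was at 590 CPM in the library labelled cKO and 516 CPM in the library labelled WT, and Irf8 at 462 CPM (cKO) and 423 CPM (WT). Relb, of the noncanonical NF-kappaB pathway, was at 58.8 CPM in cKO-labelled and 28.8 CPM in WT-labelled cells, and Cebpa at 69.8 CPM in cKO-labelled and 42.5 CPM in WT-labelled cells; the log2 ratio of Cebpa was −0.18 with barcodes thinned before gating. Nr4a1, an immediate early receptor that patrolling monocytes need, was the lower one, at 222 CPM in cKO-labelled and 345 CPM in WT-labelled cells.

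Of 25 measured inflammatory mediators, 4 (16.0%) were higher and 2 lower, beside 6.12% and 10.5% of all genes. With barcodes thinned before gating 9 were higher and 0 lower, and without the 2 deepest WT-labelled members 2 of 26 were higher and 3 lower. Il1rn, the interleukin 1 receptor antagonist, was at 311 CPM in cKO-labelled and 154 CPM in WT-labelled cells. Tnf was at 488 CPM (cKO) and 471 CPM (WT), and Il1b at 635 CPM (cKO) and 820 CPM (WT). Among pattern recognition receptors 0 of 21 were higher and 6 lower (2 lower with limits per 10000 UMIs), led by the lectins Clec4a2 (124 CPM cKO, 209 CPM WT) and Clec4n (155 CPM cKO, 247 CPM WT). No gene passed 1.5-fold among 11 Fc receptor and signalling genes, 6 NADPH oxidase genes, 9 genes of iron handling or 15 genes of the CCR4-NOT deadenylase, through which YTHDF2 is known to act. Apart from Ythdf2 itself, which was not a list member here, 1 of 16 m6A machinery genes was higher and 1 lower. Of its paralogues, Ythdf1 had 51.8 CPM (cKO) and 45.1 CPM (WT), and Ythdf3 52.2 CPM (cKO) and 43.0 CPM (WT).

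Of the remaining lists, 8 of 16 measured cell cycle genes were lower and 0 higher, beside 10.5% and 6.12% of all genes. Without the 2 deepest WT-labelled members, however, 3 of 12 cell cycle genes were lower and 1 higher. Mki67, a marker of dividing cells, was at 7.345 CPM in cKO-labelled and 19.9 CPM in WT-labelled cells, levels near the limit of 10 CPM for a measured gene, and its log2 ratio was 0.60 with limits per 10000 UMIs. Of 19 genes of dissociation stress, which digestion of tissue induces, 0 were higher and 1 lower, or 3 lower without the 2 deepest WT-labelled members. Tgm2, a transglutaminase of macrophages, was at 283 CPM in cKO-labelled and 144 CPM in WT-labelled cells and was found in 55.8% (48.4 to 63.0) of cKO-labelled members, against 34.9% (28.2 to 42.1) of WT-labelled members.

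Cytotoxic cell markers were higher in the library labelled cKO, as the interferon lists were. Of 10 measured NK and cytotoxic markers, 9 were higher and 0 lower, beside 6.12% and 10.5% of all genes. Their summed level was 923 CPM in the library labelled cKO and 295 CPM in the library labelled WT. Gzma, granzyme A, was at 263 CPM in cKO-labelled and 65.5 CPM in WT-labelled cells, with NK cells at 5877 CPM (cKO) and 3068 CPM (WT) and B cells at 415 CPM (cKO) and 88.6 CPM (WT). It came from 37 cKO-labelled and 19 WT-labelled members. Prf1, perforin, had 111 of its 191 UMIs in 1 cKO-labelled member. The part of such RNA in the interferon lists was not tested. Without members that had any UMI of T, NK, B or melanocytic genes, the interferon gamma median was 0.39, against 0.63 with all members. The type I median was then 0.63, against 0.64 with all members. T cell markers, of which the gate allowed at most 1 Cd3 UMI, summed to 100 CPM in cKO-labelled and 95.4 CPM in WT-labelled cells.

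The neighbouring gates are set beside the members here. The median log2 ratio of the interferon gamma list was 0.63 in the members, 0.87 in early monocytes, 1.17 in stressed monocytes and 1.79 in C1q macrophages. For type I interferon genes the order was 0.64, 0.68, 0.99 and 1.46. Cxcl9 was at 843 CPM in early monocytes of the library labelled cKO and 412 CPM in those of the library labelled WT, and in C1q macrophages at 1068 CPM (cKO) and 175 CPM (WT). The chemokines that attract monocytes and neutrophils had a median of −0.81 in the members, 0.13 in early monocytes, −0.50 in stressed monocytes and −0.11 in C1q macrophages. Class II genes had medians of 0.55, −0.09, 0.34 and 1.43 in the same order, and genes of monocyte identity −0.11, 0.18, 0.28 and 1.34. Differences between these populations were not tested, and the median over all genes lay between −0.13 and −0.07 in all 4.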

How the data were processed

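Leukocytes from 2 libraries, labelled Ythdf2 cKO and WT, were profiled with 10x 5′ chemistry. The deposited values are raw UMI counts per gene and barcode, which the authors made with Cell Ranger on the mm10 build, per the submitters' processing notes (Cell Ranger 5.0.1, Seurat 4.0.4) and the matrix header (cellranger 5.0.0). The annotation release, the counting options and any removal of doublets were not found in the sources used here. Depth was 121321782 UMIs over 11398 barcodes in the library labelled cKO and 128952491 over 14404 in the library labelled WT.

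Barcodes were gated on raw UMIs, with C1q genes per 10000 UMIs. Members and gene lists were chosen with earlier results of these data known. UMIs were summed over members, scaled to CPM and compared as log2 ratios, cKO over WT, with a pseudocount of 1 CPM, which understates the ratio of low genes. Genes of at least 10 CPM in either library counted as measured, genes of the gate were left out of counts and medians, and a gene counted as higher or lower from 1.5-fold. Intervals were exact Poisson for CPM, exact conditional binomial for ratios and Clopper-Pearson for shares, all at 95% (python 3.11.15, scipy 1.17.1).

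Named genes were, on each side, the 12 of largest log2 ratio that had 50 CPM or more in either library and 100 UMIs or more in the sum of both. Gate genes, mitochondrial, ribosomal protein, haemoglobin, antigen receptor segment, unnamed and sex-linked genes were left out, as were genes that, in the library where they were higher, stood under 0.2 of their level in another gated class. List members were named as examples. Doublets were kept. Scrublet (scanpy 1.11.5) marked 0 of 9865 cKO-labelled and 2 of 12179 WT-labelled barcodes by its own threshold, so the 779 (cKO) and 1187 (WT) highest scores, at the usual loading rate, were removed as an alternative, among them 12 cKO-labelled and 13 WT-labelled members. Gene coordinates come from GENCODE vM21 (GRCm38). The counting was checked on simulated data. Alternatives covered filters, doublets, the gate, depth, scaling, the pseudocount and RNA of other cell types, of which 3 were chosen after seeing the data. Some genes and 1 gene list are not reported here.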

Additional observations from a re-analysis of the deposited data

Results flagged for a closer look

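In 3 cases a marker list had ratios of opposite direction in the members and in a neighbouring gate, and the difference was not tested. Markers of early monocytes had a median log2 ratio, cKO over WT, of −0.63 in the members and 1.501 in C1q macrophages. Their summed level in the members was not lower under the label cKO, at 3953.5 CPM (cKO) and 3841 CPM (WT). Markers of neutrophils had −1.56 in the members, against 0.73 in early monocytes, and −1.56 in the members, against 1.24 in C1q macrophages. The gate limits Chil3 and Hp in the members by raw UMIs, and the neutrophil value rests on 4 measured genes whose summed level was 76.3 CPM in the library labelled cKO and 141 CPM in the library labelled WT. Both lists changed direction in the members when depth was matched before gating.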

How the results depend on the processing

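Members made up 1.75%, 2.54%, 4.86%, 1.29%, 1.74% and 1.80% of barcodes in the library labelled cKO, and 1.59%, 1.54%, 3.31%, 1.13%, 1.64% and 1.45% in the library labelled WT. These are, in order, the values with at least 6 UMIs of Ly6c2 plus Vcan, with all limits per 10000 UMIs, with barcodes thinned to 3000 UMIs before gating, without any T, NK, B or melanocytic UMI, with under 3 UMIs of other cell types, and with Tgfbi, Ms4a4c and Fcgr1 all found. The ratio of shares, cKO over WT, was 1.65 per 10000 UMIs and 1.47 after thinning. Genes at least 1.5-fold higher numbered 737 with members thinned, 218 with a pseudocount of 10 CPM, 150 with a limit of 50 CPM and 2536 with no filter on low values. Lower ones numbered 305, 134 and 3654 under those last 3 settings.

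The median of the chemokines that attract monocytes and neutrophils was −0.59 per 10000 UMIs, −0.18 after thinning before gating and −1.14 without T, NK, B or melanocytic UMIs. The MHC class II median was 0.17 per 10000 UMIs, 0.000254 with barcodes thinned before gating, 0.47 with members thinned, 0.46 with equal weight per cell, 0.66 with median-of-ratios size factors and 0.47 without the 2 deepest WT-labelled members. Values past 1.5-fold that changed sign were these. Neutrophil markers had 2.06 per 10000 UMIs and 1.19 after thinning before gating, early monocyte markers 0.072 and 0.062, and stromal markers 0.52 with members thinned. Acta2 had 0.28 in members with all 3 markers. Col4a1 had 0.22 after thinning before gating, 0.27 without T, NK, B or melanocytic UMIs, 0.54 without the 2 deepest WT-labelled members and 0.73 with under 3 UMIs of other cell types, where Ccr9 had 2.02. The cause was not tested. Of 1429 values recomputed over 92 results and 16 settings, 1128 stayed within a set range around the main value and 290 moved beyond it. Another 11 went from past 1.5-fold to the opposite sign. The range was the counting interval for genes and shares, or 1.5-fold where none could be formed. For lists it was the median of the single genes' counting bounds, which is not an error of the list median. For counts of genes it was a factor of 1.5, and for the median over all genes a fixed step. Values of opposite sign numbered 65 in all, 56 of them list medians; monocyte identity (−0.11) had 0.27 and coagulation and matrix (−0.14) 0.16 per 10000 UMIs, arginine and alternative activation (−0.53) 0.56 and stressed monocyte markers (−0.49) 0.28 after thinning before gating, and Cxcl10 −0.02 without T, NK, B or melanocytic UMIs. No paired analysis was possible because each label has 1 library and no test between labels can be made.

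With 1 library per label, animals, sorting, loading and depth cannot be told apart from the label. The 214 cKO-labelled and 240 WT-labelled members limit the precision of shares, and the gate on raw UMIs takes different cells at different depths.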
